A study of Mus musculus with 4 samples.

Results

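The genes described here belong to signalling by bone morphogenetic proteins (BMPs). They are the ligand genes Bmp2, Bmp4, Bmp5, Bmp7 and Bmp10, the antagonist gene Nog, the inhibitory gene Smad6 and the response genes Id1, Id2 and Id3. They were taken by symbol from the gene tables, which gave 10 of the 27998 genes counted, and each symbol was found in all 4 libraries. Transcripts of single cells were measured in mouse embryos of the genotype Mesp1Cre;Rosa26-GFPflox/+ on the Swiss Webster background, at 2 early stages (E8.0 and E8.25, days of embryonic development) and 2 late ones (E9.5 and E10.5). Where 4 values are given in a row, they follow this order. Cre made from Mesp1, a gene of early mesoderm, switches the GFP reporter on permanently, so that GFP follows all later descendants of those cells and does not report what they express at the time of sorting. Embryos of a stage were pooled, dissociated with trypsin, and living GFP-positive cells were sorted, with 1 library per stage and no library of another genotype used here. The early libraries hold the upper part of the body and the late ones the heart and pharyngeal apparatus, so that stage and dissected region cannot be told apart.

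BMPs are secreted dimers that bind receptor kinases at the cell surface, after which Smad proteins in the cell are phosphorylated, enter the nucleus and change transcription. Noggin, made from Nog, binds BMPs outside the cell and keeps them from their receptors. Smad6 is induced by the pathway and dampens it, and the Id genes encode proteins that bind helix-loop-helix transcription factors and are classical targets of BMP signals. In the embryo, BMP signals take part in the induction of heart mesoderm, in the addition of progenitor cells to the heart tube, in the growth of its muscle wall and in the formation of the cushions from which valves arise.

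After removal of poor cells and predicted doublets, 21448 cells were retained, from 2884 to 7525 per library, with a median of 15205 to 35216 UMIs (distinct captured transcript molecules) per cell. Cells were placed in compartments by per-cell gates on raw UMIs of marker genes, none of which is among the 10 genes described. The cardiomyocyte gate asked for at least 3 of the sarcomere genes Tnnt2, Myl7, Myl4, Ttn and Actn2 and the endothelial gate for at least 3 of Pecam1, Cdh5, Egfl7, Esam, Tie1 and Emcn, each with a minimum share of the cell's UMIs. The branchiomeric gate, for progenitors of head and neck muscle, asked for at least 3 markers of a list with Tbx1, Tcf21, Lhx2, Msc and Myf5. The anterior second heart field gate used Isl1, Fgf10, Fgf8, Mef2c, Nkx2-5 and Nkx2-6, and the posterior one Foxf1, Tbx5, Wnt2, Osr1 and Hoxb1. A further gate took cells with both Hand1 and Mab21l2. These are marker gates and not clusters, and in the 5 gates with a marker minimum from 4.43 to 61.2% of cells lay at it. Haemoglobin UMIs differed between libraries in these 6 gates, with gate medians per 10000 UMIs of 0 at E9.5, 1.08 to 1.35 at E8.0, 27.5 to 30.9 at E8.25 and 47.6 to 49.4 at E10.5, and their part in the results was not tested. The sarcomere genes had a median of 0.417 to 2.34 per 10000 UMIs in the other 5 of these 6 gates and of 86.3 to 212 in the cardiomyocyte gate. From 16 to 88 cell barcodes were shared between pairs of libraries.

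Levels are given as CPM, UMIs of the gene per 1000000 UMIs of the cells summed, with exact Poisson 95% intervals that cover counting error only. A kit that counts the 3' end of transcripts gives molecules without regard to length, so levels are compared between cells for a gene and not between genes. With 1 library per stage, differences between stages were not tested. Instead, a gene was counted as past the fold when both late libraries (E9.5 and E10.5) were at least 2-fold above, or below, both early ones. In sums over all cells, a change in the mix of cells and a change within cells cannot be told apart.

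In the sums over all retained cells, 0 of the 8 genes with enough signal passed the 2-fold rule between the late and early libraries, beside 4.22% of all genes. Id2 came nearest, with 166 CPM (164 to 168), 217 (215 to 220), 683 (676 to 689) and 405 CPM (402 to 409), so that the nearest early and late libraries were 1.86-fold apart. It passed when haemoglobin, mitochondrial and ribosomal protein genes were left out of the total, when erythroid cells were left out, and at a fold of 1.5. Bmp2 stood at 25.7, 15.0, 12.1 and 7.40 CPM in the order of stages, with both late libraries below both early ones but E8.25 and E9.5 close together. Bmp4 was at 45.4, 41.0, 89.4 and 56.7 CPM, and the E9.5 library was the highest. Id1 ran from 175 to 234 CPM and Id3 from 347 to 621 CPM, each highest at E9.5. Nog ran from 2.61 to 3.41 CPM and Bmp5 from 8.38 to 12.9 CPM. Between libraries of the same region, Smad6 was the 1 gene of the 10 past 2-fold from E8.0 (15.4 CPM) to E8.25 (6.69 CPM), beside 4.08% of all genes. From E9.5 (22.2 CPM) to E10.5 (10.2 CPM) it was Bmp7 alone, beside 5.74% of all genes. Both were lower in the later library. The allantois gate, with the highest Smad6 of the gates at E8.0 (41.4 CPM), held 563 cells in that library and 0 at E8.25, and the caudal gate held 326 and 10, and their part in the drop was not tested. Erythroid cells numbered 64, 315, 2 and 1025 and held little of these transcripts. Their level was 12.9 to 19.0% of that in the other cells for Bmp2 and 1.88 to 5.05% for Bmp4. For Bmp7 it was 1.91 to 8.45% and for Id2 1.93 to 4.86%. Sums over all cells were thus lower where erythroid cells were many. The part of erythroid cells in the lower Bmp7 at E10.5 was not tested. With them left out, Id2 stood at 169, 256, 683 and 515 CPM.

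**Figure D1:**
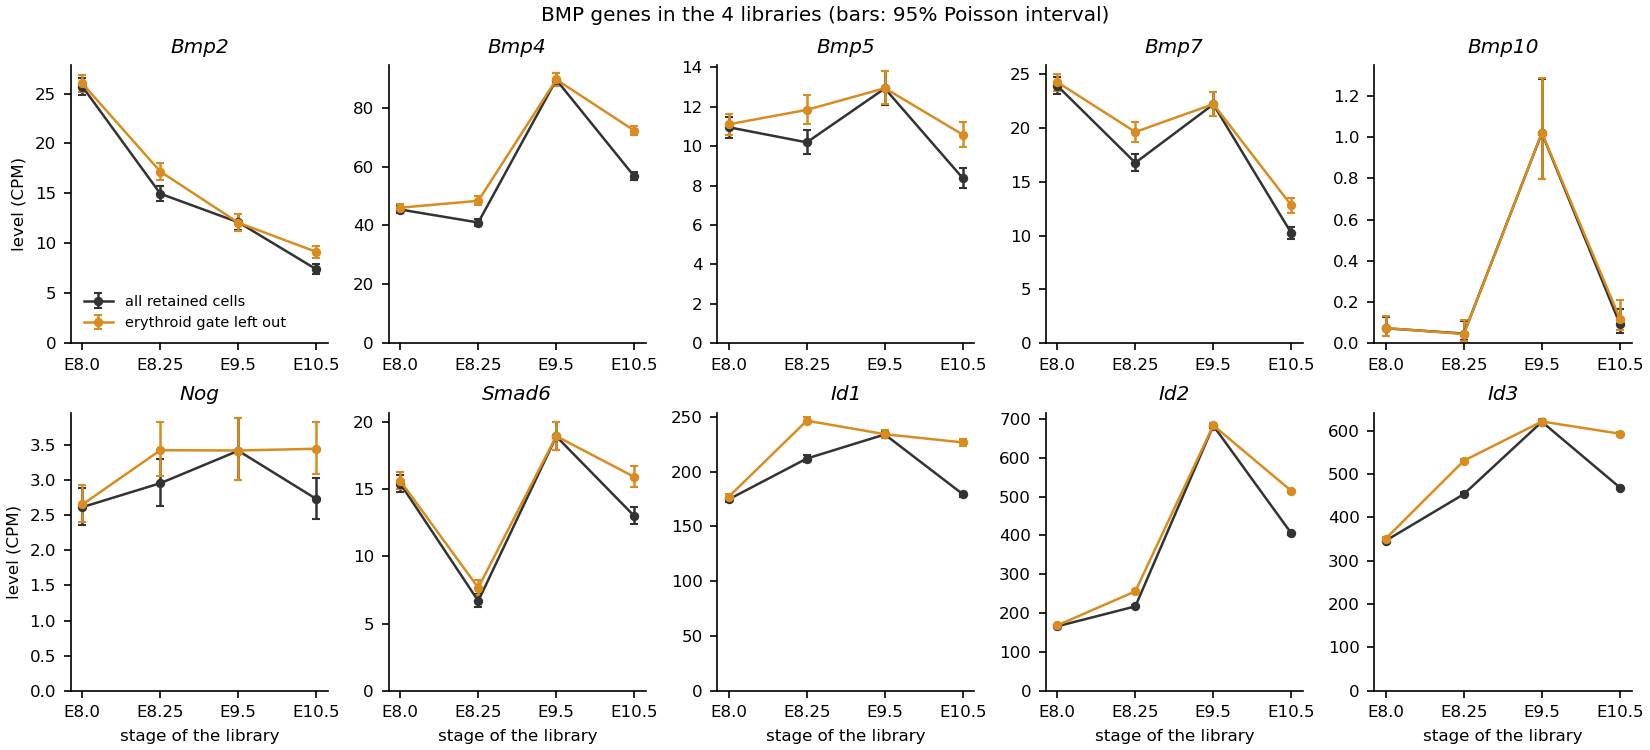
Level of each of the 10 genes in all retained cells by stage, in CPM on a linear axis from 0, with 1 point per library and exact Poisson 95% intervals, once for all cells (black) and once with the erythroid gate left out (orange). In all cells Id2 has both late libraries (683 and 405 CPM) above both early ones (166 and 217 CPM), whereas Id1 stays between 175 and 234 CPM.

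Compartments were compared next. Each gate was compared with all other retained cells of the same library, over the 4 libraries, with edgeR's quasi-likelihood test, the library as a block and Benjamini-Hochberg adjustment over all genes, and a gene was called at an adjusted p under 0.05. Of the 10 genes 7 were called in the cardiomyocyte gate, 6 higher and 1 lower, beside 31.0% of all genes tested. In the endothelial gate 6 of 9 were called, 1 higher and 5 lower, beside 36.3%, and Bmp10 was too low to be tested. The branchiomeric gate had 4 of 9, 1 higher and 3 lower, beside 9.63%. In the anterior second heart field gate 4 of 9 were higher, beside 4.01%, and in the posterior one 1 of 9 was higher, beside 8.70%. In the gate of Hand1 and Mab21l2, 3 of 9 were higher, beside 9.82%. Bmp10 in the cardiomyocyte gate and Nog in the endothelial gate passed the filter on low counts only through the side where they were high, so their calls within these counts are no support. The libraries are also the stages, so the test asks for a mean difference over the 4 stages, and a called gene could still lie on the other side in 1 library.

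**Figure D2:**
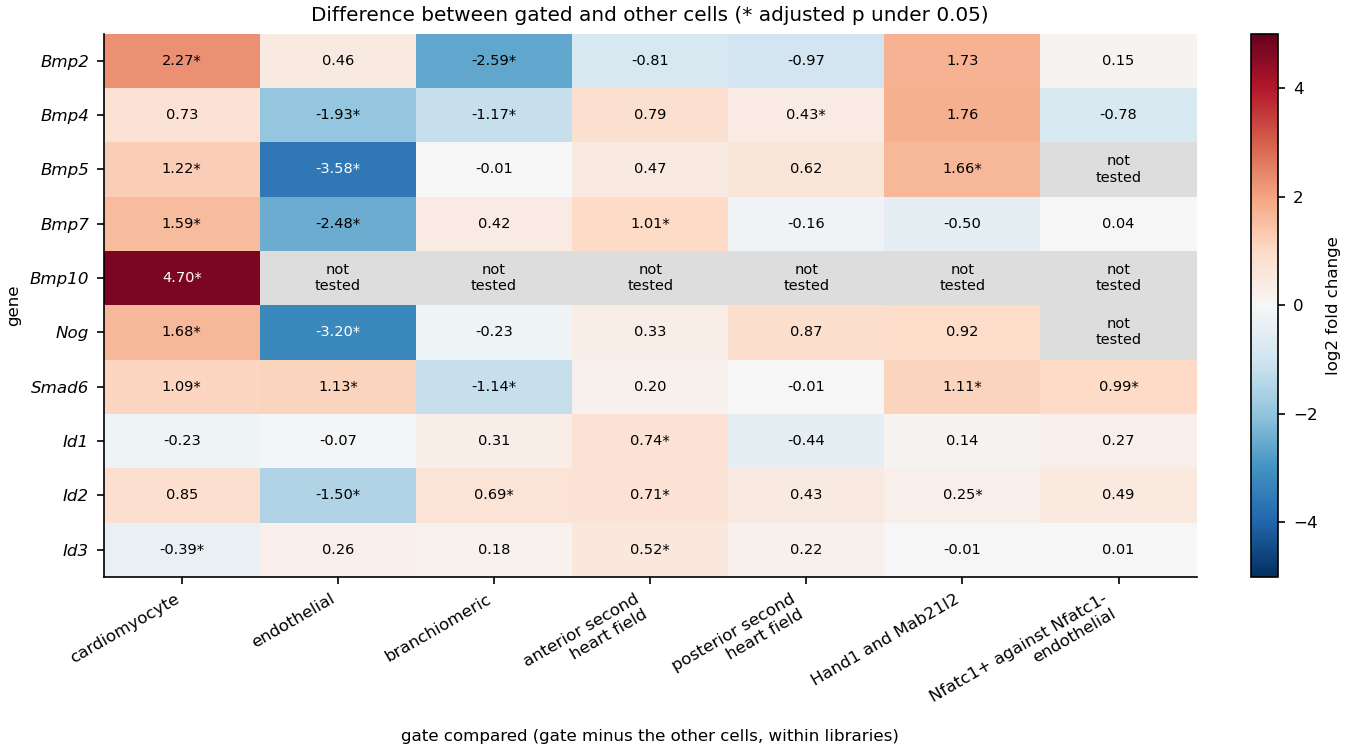
Heat map of the log2 fold change of each gene (rows) between the cells of a gate and all other cells of the same libraries (columns), and between Nfatc1-positive and Nfatc1-negative endothelial cells, from edgeR fits over 4 libraries, with a star for an adjusted p under 0.05 and grey where a gene was not tested. All 5 ligand genes are positive in the cardiomyocyte column, where the star of Bmp10 is no support because of the filter on low counts, while in the endothelial column Bmp4 (-1.93), Bmp5 (-3.58) and Bmp7 (-2.48) are negative with a star.

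Cells of the cardiomyocyte gate carried more Bmp2, Bmp5, Bmp7, Bmp10 and Nog than the rest of their library in each of the 4 libraries. Bmp2, whose product made in heart muscle acts on the neighbouring endocardium, lies on chromosome 2 (133552159 to 133562896 in GRCm38.p6). It stood at 57.8, 63.1, 51.3 and 40.5 CPM in the gate and at 24.4, 14.1, 6.28 and 6.07 CPM in the other cells. All 4 gate values lay above all 4 of the other cells. The difference was 2.27 ± 0.28 on the log2 scale (SE, 4 libraries, edgeR adjusted p = 0.00196), and it was called in 12 of 12 settings. Bmp7, a ligand that often pairs with Bmp2 or Bmp4 (chromosome 2, 172868012 to 172940321), was at 43.9, 52.7, 51.5 and 44.5 CPM in the gate and 8.85 to 23.1 CPM elsewhere, a log2 difference of 1.59 ± 0.19 (edgeR adjusted p = 0.00159). The 2 sets of values did not overlap, and this call too was made in 12 of 12 settings.

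Bmp5, a ligand close to Bmp7 (chromosome 9, 75775365 to 75900316, plus strand), was at 45.7, 26.3, 20.8 and 10.47 CPM in the cardiomyocyte gate, lower at each later stage, while the other cells stayed between 8.29 and 11.8 CPM. The gate was higher in 4 of 4 libraries, by 1.22 ± 0.33 (SE) on the log2 scale (edgeR adjusted p = 0.0301). This call was lost without the E8.25 library (adjusted p = 0.102) and without the E9.5 library (0.0676), with adjusted p from 0.00447 to 0.102 over the settings. Its highest levels lay elsewhere at the later stages. In the gate of Hand1 and Mab21l2 Bmp5 stood at 27.4, 32.1, 34.1 and 33.3 CPM against 8.07 to 11.7 CPM in the other cells, a log2 difference of 1.66 ± 0.11 (edgeR adjusted p = 0.00190) called in 12 of 12 settings. The gate means were 31.7 ± 3.0 CPM and 9.66 ± 1.64 CPM in the other cells (SD, n = 4).

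Bmp10, a ligand of trabecular heart muscle (chromosome 6, 87428994 to 87434512, plus strand), had 100 UMIs in all, and more of them in the cardiomyocyte gate than its cells' share. The gate held 10, 3, 34 and 8 UMIs and the other cells 1, 2, 38 and 4. In CPM the gate stood at 1.69, 1.65, 3.72 and 1.61. The ratio of gate to other cells was 247 (exact 95% interval 35.1 to 10713), 85.8 (9.83 to 1027), 6.01 (3.67 to 9.80) and 49.5 (13.3 to 225), so every interval lay above 1. It passed the filter on low counts only through this gate, so its test is not given. From 2.53 to 5.66% of cells in the gate had a UMI of Bmp10, beside 0 to 0.317% of erythroid cells, which were deeper, and thinned to 8000 UMIs per cell the gate's share was 0.807 to 3.77%. The E9.5 library alone had Bmp10 UMIs in the gate of Hand1 and Mab21l2, 12 of them or 3.01 CPM (1.56 to 5.26), close to its cardiomyocyte gate. No UMI was found in 1309 endothelial cells with 27893815 UMIs, a depth at which 3 UMIs would be 0.108 CPM.

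Nog (chromosome 11, 89300638 to 89302559) was higher in cardiomyocytes, as were Bmp2 and Bmp7, and lower in endothelial cells. In the cardiomyocyte gate it was at 7.79, 8.23, 7.76 and 10.1 CPM, from 46, 15, 71 and 50 UMIs, against 2.40 to 2.86 CPM in the other cells, and the groups did not overlap. The log2 difference was 1.68 ± 0.18 (SE, edgeR adjusted p = 0.00111), called in 12 of 12 settings. Shares of cells with a UMI of Nog were 11.4, 18.9, 11.5 and 13.0% in the gate, with a median of 16015 to 33448 UMIs per cell, and at most 2.54% in erythroid cells at a median of 28090 to 52203. After thinning to 8000 UMIs per cell the share in the gate was 4.88 to 7.55% and in erythroid cells 0 to 0.637%. In the proepicardial gate, the source of the outer layer of the heart, Nog was the highest of all gates at both late stages, with 8.27 CPM (2.25 to 21.2, from 4 UMIs) and then 16.1 CPM (11.7 to 21.7), but the intervals overlapped those of cardiomyocytes. The sarcomere genes stood at a median of 9.41 and 10.6 per 10000 UMIs in the proepicardial gate at these stages, and their part in its Nog level was not tested. With the erythroid and macrophage gates left out, endothelial cells were lowest in all 4 libraries, with 0.185, 0.828, 0.259 and 0.139 CPM.

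Bmp4 (chromosome 14, 46383525 to 46390669, minus strand), a ligand of mesoderm induction and of the outflow tract, was higher in posterior second heart field cells, lower in endothelial ones, and changed sides with stage in cardiomyocytes. Cardiomyocytes had 33.5, 57.1, 154 and 190 CPM, below the other cells at E8.0 (45.9 CPM) and above them at the other stages (40.7, 79.9 and 51.3 CPM). The log2 difference was 0.73 ± 0.32 (SE, edgeR adjusted p = 0.126), which was called only without the E8.0 library, at 1.09 (adjusted p = 0.0212), with adjusted p from 0.0212 to 0.347 over the settings. The shares of cells with a UMI went the same way as the levels, with 26.9, 39.6, 52.8 and 67.1% in the gate and 18.1, 24.5, 43.3 and 52.8% after thinning, beside 2.63 to 11.1% of erythroid cells (0 to 2.55% thinned). In the posterior second heart field gate Bmp4 was higher than elsewhere in 4 of 4 libraries, with 56.6, 54.8, 120 and 86.7 CPM against 44.7, 40.4, 83.5 and 54.1 CPM, a log2 difference of 0.43 ± 0.06 (edgeR adjusted p = 0.0113). In the anterior gate, with 47.4, 65.0, 115 and 258 CPM against 45.3, 39.6, 88.3 and 53.7, the log2 difference was 0.79 ± 0.27 (adjusted p = 0.166).

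The gate of Hand1 and Mab21l2 had the highest Bmp4 of all gates at E8.0 (156 CPM) and E8.25 (276 CPM), and its counting intervals did not overlap those of the next gate. At E10.5 the anterior second heart field gate was the highest, at 258 CPM. At E9.5 and E10.5 the gate of Hand1 and Mab21l2 was at 132 and 131 CPM, behind the cardiomyocyte gate. The log2 difference from the other cells was 1.76 ± 0.45 (SE, edgeR adjusted p = 0.0555), and it was called in 4 of 12 settings, with adjusted p from 0.0219 to 0.206. Bmp2 was like it, at 58.2, 101, 19.8 and 18.6 CPM against 24.4, 8.68, 11.6 and 7.26 CPM, higher in 4 of 4 libraries by 1.73 ± 0.45 on the log2 scale (edgeR adjusted p = 0.0582). Without the E8.25 library this difference was 1.08 (adjusted p = 0.0221), with adjusted p from 0.00265 to 0.194 over the settings. Bmp7 was lower in this gate in 3 of 4 libraries, by -0.50 ± 0.13 (edgeR adjusted p = 0.0538, and 0.0346 without the E10.5 library, with a range of 0.0152 to 0.493). Paraxial cells, the precursors of segments and part of the head, were at the other end at E8.0, with 1.40 CPM of Bmp2 and 2.86 CPM of Bmp4, the lowest of 10 gates without blood.

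Endothelial cells had less Bmp4, Bmp5 and Bmp7 than the other cells, with Bmp2 an exception at the early stages. Bmp5 was at 0.739, 1.16, 1.04 and 0.837 CPM against 8.83 to 13.6 CPM elsewhere, a log2 difference of -3.58 ± 0.19 (SE, edgeR adjusted p = 9.02e-05). Bmp7 was at 7.48, 4.97, 0.259 and 1.26 CPM and differed by -2.48 ± 0.49 (adjusted p = 0.00984), and Bmp4, at 6.28, 13.9, 39.6 and 14.2 CPM, by -1.93 ± 0.26 (adjusted p = 0.00261). All 3 were lower in 4 of 4 libraries and called in 12 of 12 settings. Bmp2 was the exception. It stood at 69.1 CPM (64.2 to 74.2), highest of the 11 gates of E8.0 with an interval that overlapped the next, then at 30.5 (26.2 to 35.2), 5.70 (3.57 to 8.63) and 4.88 CPM (3.40 to 6.79). The gate was thus above the other cells at both early stages (22.4 and 14.0 CPM) and below them at both late ones (12.5 and 7.55 CPM), and the difference over the 4 libraries was 0.46 ± 0.49 on the log2 scale (edgeR adjusted p = 0.494). Cells with a UMI of Bmp2 made up 51.0, 29.1, 5.41 and 5.37% of the gate, at median depths of 21986, 30108, 16983 and 17884 UMIs. In erythroid cells the share was 15.6% at E8.0 and 16.5% at E8.25, at median depths of 35351 and 52203, and 3.02% at E10.5 at 28090. Thinned to 8000 UMIs per cell, the endothelial shares were 31.9, 13.3, 1.93 and 3.64% and the erythroid shares 4.84, 2.87 and 0.611%.

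Branchiomeric cells were low in both Bmp2 and Bmp4. Bmp2 was at 4.84, 1.12, 2.21 and 1.78 CPM against 7.83 to 25.8 CPM in the other cells, and the groups did not overlap. Only 2 of 34 cells in the gate had a UMI of Bmp2 at E8.0 and 2 of 54 at E8.25. The log2 difference was -2.59 ± 0.21 (SE, edgeR adjusted p = 0.000315), called in 12 of 12 settings. Bmp4 was at 19.4, 14.1, 34.5 and 41.2 CPM against 45.5, 41.5, 98.5 and 57.8 CPM, lower in 4 of 4 libraries by -1.17 ± 0.16 (adjusted p = 0.00330). Bmp7, at 25.8, 24.7, 22.9 and 18.8 CPM, was above the other cells in 4 of 4 libraries, and the log2 difference of 0.42 ± 0.16 was not called (adjusted p = 0.146). In the anterior second heart field gate, by contrast, Bmp7 was called, with 46.3, 37.1, 40.3 and 20.04 CPM against 22.7, 15.6, 21.4 and 10.1 CPM and a log2 difference of 1.01 ± 0.11 (adjusted p = 0.00463). The difference between these gates was not tested. At E8.0 the branchiomeric gate held 34 cells, of which 58.8% lay at the minimum of 3 markers.

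**Figure D3:**
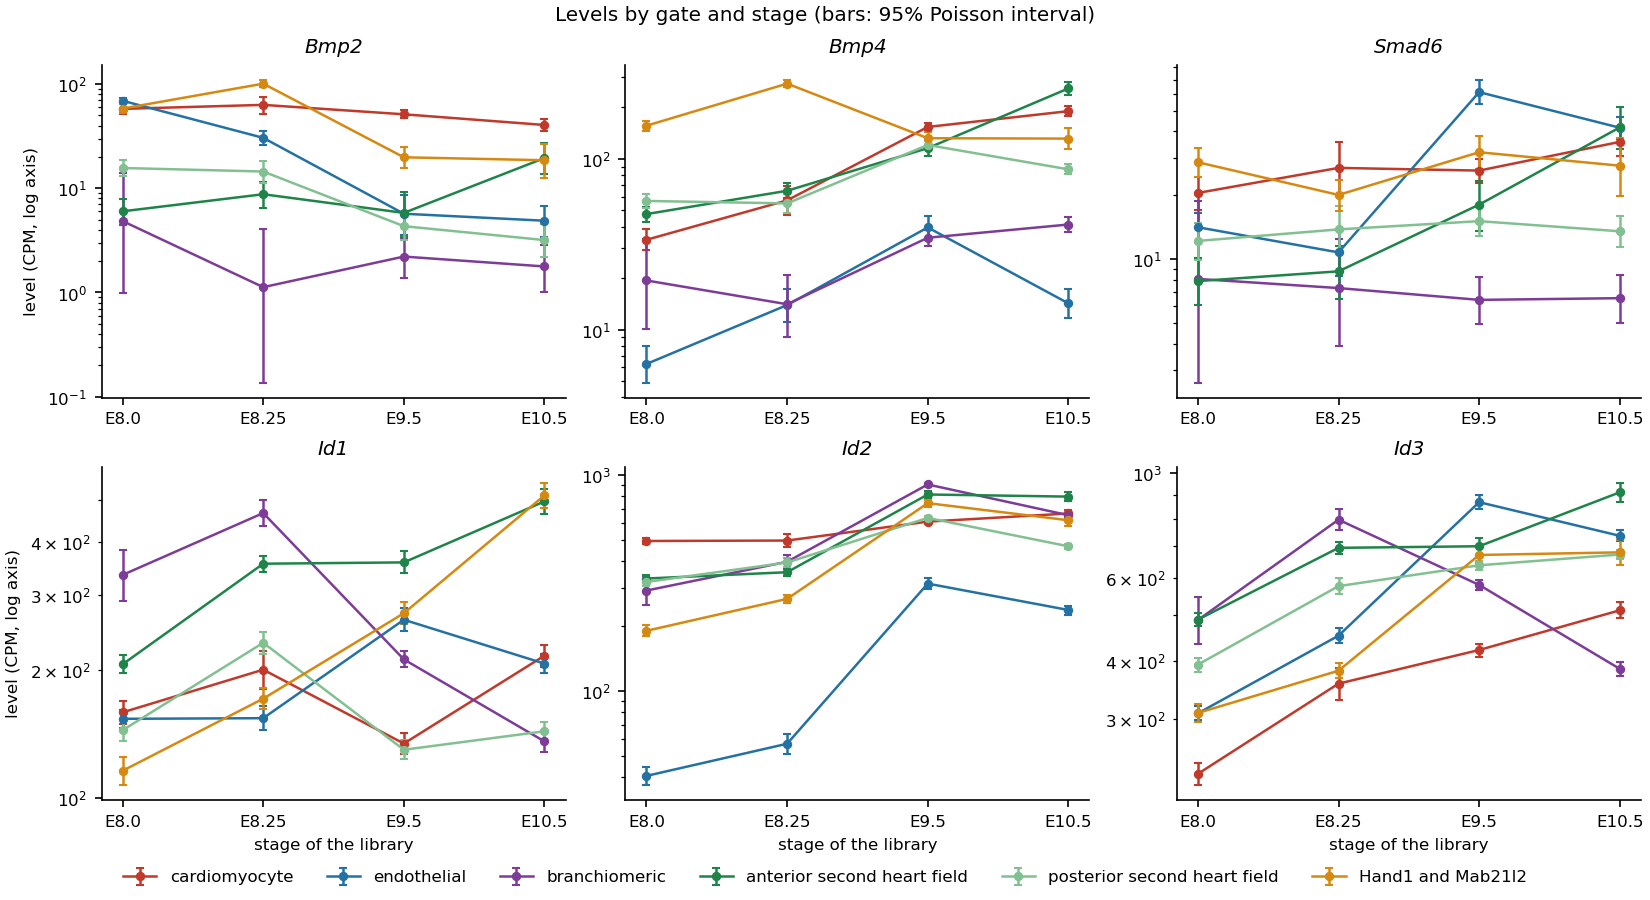
Levels of 6 of the genes by stage in the 6 gates, in CPM on log axes, with 1 point per library, lines joining the points of a gate, and exact Poisson 95% intervals. Endothelial Bmp2 goes from 69.1 to 4.88 CPM while endothelial Smad6 and Id2 are higher at both late stages, and cardiomyocyte Bmp4 goes from 33.5 to 190 CPM.

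Within gates, some genes did pass the 2-fold rule between stages. In the endothelial gate it was 3 of the 6 genes with enough signal (Bmp2 lower late, Smad6 and Id2 higher late), beside 5.79% of all genes. Endothelial Bmp2 was lower by -3.23 on the log2 scale between the means of late and early libraries, and its nearest libraries were 5.35-fold apart. For cardiomyocytes it was 1 of 9, Bmp4, which was higher by 1.92 (log2), beside 5.0% of all genes. The posterior second heart field gate had 1 of 8, Bmp2, with 15.7, 14.5, 4.33 and 3.18 CPM, beside 5.34%. The anterior gate had 2 of 8, Smad6 with 7.89, 8.77, 18.1 and 41.7 CPM and Id2 with 332, 355, 813 and 795 CPM, both higher late, beside 5.50%. The gate of Hand1 and Mab21l2 had 2 of 8, Bmp2 lower late and Id2 higher late (190, 267, 742 and 618 CPM), beside 5.36%. Bmp2 was therefore past the fold, lower late, in 3 of the 5 gates examined, and Id2, higher late, in 3 of 5. Cardiomyocytes passed for neither. None of these differences between stages has a replicate.

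Smad6, the inhibitor inside the cell, lies on chromosome 9 (63953076 to 64022085, minus strand). Its promoter is shown because, among those of 6 of these genes in the RefSeq table (GRCm38.p6), it is the 1 that holds GTCTAGAC. This string is the palindromic Smad box, which the DNA-binding part of some Smad proteins can bind. The match covers positions -4 to 4 around the transcription start of the promoter window, is in capitals, and reads the same on both strands. That start lies inside the gene bounds given above and is not the gene end at 64022085. The same 8 letters are in 70 of 32851 promoter windows of 300 bases in the table (0.213%). The window shown runs from 250 bases before the start to 10 after it (chr9:64022050-64022309, minus strand, 66.2% G and C).
Smad6: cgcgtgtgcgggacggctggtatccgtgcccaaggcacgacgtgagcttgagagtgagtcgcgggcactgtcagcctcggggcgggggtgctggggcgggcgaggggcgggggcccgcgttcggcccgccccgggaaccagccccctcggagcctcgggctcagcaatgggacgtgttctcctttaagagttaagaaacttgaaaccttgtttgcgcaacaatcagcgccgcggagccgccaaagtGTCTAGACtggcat
A match of letters describes the sequence and does not show that the site is used.

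Smad6 was higher in cardiomyocytes and in the gate of Hand1 and Mab21l2, and lower in branchiomeric cells. Cardiomyocytes had Smad6 at 20.5, 26.9, 26.1 and 35.7 CPM against 15.2, 6.33, 17.9 and 12.1 CPM, a log2 difference of 1.09 ± 0.25 (SE, edgeR adjusted p = 0.0196), which was lost without the E10.5 library (0.0640), with a range of 0.00101 to 0.0640 over the settings. In the gate of Hand1 and Mab21l2 it was at 28.6, 20.1, 31.9 and 27.5 CPM, higher in 4 of 4 libraries by 1.11 ± 0.17 (adjusted p = 0.0126), and lost without the E8.0 library (0.0664), with a range of 5.52e-05 to 0.182. Branchiomeric cells had 8.07, 7.31, 6.43 and 6.55 CPM and were lower in 3 of 4 libraries, by -1.14 ± 0.26 (adjusted p = 0.0281). That call was lost without the E8.0, E9.5 or E10.5 library (0.0722, 0.156 and 0.0728), with a range of 0.00482 to 0.252. The highest level of all gates at E8.0, 41.4 CPM, was in the allantois gate, the bud that later forms umbilical vessels.

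In endothelial cells Smad6 stood higher at both late stages, with 61.1 (53.6 to 69.4) and 41.6 CPM (37.0 to 46.6), than at the early ones, with 14.1 (12 to 16.6) and 10.8 CPM (8.31 to 13.7), against 15.5, 6.44, 16.5 and 11.3 CPM in the other cells. It was above them in 3 of 4 libraries, by 1.13 ± 0.34 on the log2 scale (edgeR adjusted p = 0.0429). The call was lost without E8.25 (0.0815), E9.5 (0.147) or E10.5 (0.125), with a range of 0.00827 to 0.147. Among endothelial cells, those with a UMI of Nfatc1, a transcription factor of the endocardium (the inner lining of the heart), were set against those without. Of 7 genes tested 1 was called, Smad6, beside 0.130% of all genes (13 of 10015). Smad6 was at 16.7, 13.0, 88.5 and 66.5 CPM in the positive and at 12.8, 9.77, 38.4 and 23.9 CPM in the negative cells. The ratio was 1.31 (0.930 to 1.82), 1.33 (0.771 to 2.26), 2.31 (1.75 to 3.05) and 2.79 (2.18 to 3.58), so the intervals lay above 1 at the late stages only. The log2 difference was 0.99 ± 0.16 (SE, edgeR adjusted p = 0.0307). It was lost without E9.5 (0.393) or E10.5 (0.671) and under DESeq2, and called in 5 of 11 settings, with adjusted p from 1.02e-10 to 1. Bmp4 was lower in the Nfatc1-positive cells in 4 of 4 libraries, with ratios of 0.916, 0.273, 0.657 and 0.559, and the fitted difference of -0.78 ± 0.20 was not called (adjusted p = 0.192).

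The Id genes lie on chromosomes 2 (Id1, 152736251 to 152737410), 12 (Id2, 25093799 to 25096092, minus strand) and 4 (Id3, 136143822 to 136145392, plus strand). The promoters of Id2 and Id3 are shown because these genes differed in where they were high, and because only that of Id2, among the 6 promoters in the table, holds GGCGCC, a string known from the BMP-responsive part of Id1. It lies at -231 to -226 from the start, is in capitals, reads the same on both strands and occurs in 11.9% of the 32851 promoter windows. The window of Id2 is chr12:25096083-25096342 (minus strand, 61.5% G and C) and that of Id3 is chr4:136143572-136143831 (plus strand, 62.3%), which holds neither string.
Id2: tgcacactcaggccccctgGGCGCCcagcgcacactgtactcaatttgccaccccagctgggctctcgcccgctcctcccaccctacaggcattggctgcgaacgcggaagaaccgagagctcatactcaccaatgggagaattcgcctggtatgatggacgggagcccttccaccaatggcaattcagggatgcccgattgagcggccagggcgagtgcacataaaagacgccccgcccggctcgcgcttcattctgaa
Id3: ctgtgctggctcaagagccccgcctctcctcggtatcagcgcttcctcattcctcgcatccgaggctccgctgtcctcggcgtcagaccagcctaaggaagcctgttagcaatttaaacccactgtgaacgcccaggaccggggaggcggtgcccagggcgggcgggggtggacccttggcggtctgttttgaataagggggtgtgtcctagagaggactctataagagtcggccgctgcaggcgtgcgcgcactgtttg
A GGCGCC string is thus common among promoters, and nothing about a factor follows from its presence or absence in these windows.

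Id2 was low in endothelial cells and high in branchiomeric ones. In endothelial cells it was at 40.6, 57.1, 315 and 238 CPM, lowest of the gates without blood in all 4 libraries, against 176, 227, 704 and 415 CPM in the other cells. The log2 difference was -1.50 ± 0.21 (SE, edgeR adjusted p = 0.00271). In branchiomeric cells it was at 292, 397, 905 and 652 CPM against 166, 214, 646 and 387 CPM, higher in 4 of 4 libraries by 0.69 ± 0.07 (adjusted p = 0.000698). Cardiomyocyte Id2 was nearly level over the stages, at 496, 498, 609 and 664 CPM, while the other cells were at 153, 212, 693 and 395 CPM. It was the highest gate at E8.0 and E8.25, above the other cells in 3 of 4 libraries, and the log2 difference of 0.85 ± 0.28 was not called (adjusted p = 0.0588). It was called without the E9.5 library (0.0164), with a range of 0.0164 to 0.328. In the gate of Hand1 and Mab21l2 the difference was small, 0.25 ± 0.06 (adjusted p = 0.0471), and the call was lost without any 1 of the 4 libraries (0.0614 to 0.153), with a range of 0.00635 to 0.930.

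Id1, Id2 and Id3 were each higher in the anterior second heart field gate in 4 of 4 libraries. Id1 was at 206, 355, 358 and 497 CPM against 173, 204, 228 and 175 CPM, a log2 difference of 0.74 ± 0.13 (SE, edgeR adjusted p = 0.0268). Id3, at 489, 694, 699 and 910 CPM, differed by 0.52 ± 0.09 (adjusted p = 0.0234) and Id2 by 0.71 ± 0.12 (adjusted p = 0.0236). These calls were not robust to the loss of a library. Id1 was lost without E8.25 (0.158) or E9.5 (0.0711), with a range of 0.000214 to 0.326. Id2 was lost without E8.0 (0.0578) or E8.25 (0.127), with a range of 3.75e-05 to 1, and Id3 without E8.0 (0.0888) or E8.25 (0.143), with a range of 2.64e-05 to 0.598. Bmp2 in this gate was below the other cells in 3 of 4 libraries, at 6.01, 8.77, 5.80 and 19.5 CPM, and was called only without E10.5, at -1.39 (0.0251, with a range of 0.0251 to 0.916).

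In cardiomyocytes Id3 alone of the Id genes was called, and it was lower. It stood at 230, 357, 421 and 511 CPM against 351, 455, 650 and 467 CPM, below the other cells in 3 of 4 libraries, by -0.39 ± 0.10 (SE, edgeR adjusted p = 0.0302). The call was lost without E8.0 (0.0920), E8.25 (0.0795) or E9.5 (0.123), with a range of 0.00342 to 0.341. Id1 was at 159, 200, 134 and 216 CPM and was not called (-0.23 ± 0.15, adjusted p = 0.284). In branchiomeric cells Id1 went from 334 and 467 CPM at the early stages, the highest of the gates (at E8.0 with intervals that overlapped the next), to 212 and 136 CPM at the late ones, and the difference from other cells over the 4 libraries was 0.31 ± 0.26 (adjusted p = 0.555). It was called only without the E10.5 library (0.0439, with a range of 0.0439 to 0.986). In endothelial cells Id3 was at 309, 452, 868 and 736 CPM against 349, 454, 606 and 453 CPM elsewhere, and its difference of 0.26 ± 0.13 was not called (adjusted p = 0.160).

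Cells of the cardiomyocyte gate were split by further marker genes, and the parts are set side by side per library, with exact 95% intervals and no test over libraries. Tbx2, a transcription factor of the atrioventricular canal and itself a BMP response gene, was found in 31, 37 and 36 cells at E8.0, E9.5 and E10.5. Bmp2 in these cells was at 113, 53.4 and 134 CPM, against 51.1, 51.1 and 25.7 CPM in the other cardiomyocytes. The ratio was 2.21 (1.68 to 2.88) first, then 1.04 (0.733 to 1.45) and 5.20 (3.90 to 6.93). The interval lay above 1 at the first and last stages and held 1 at E9.5. Isl1, a gene of second heart field cells and the poles of the heart, went with Bmp4. Isl1-positive cells had 58.0, 257 and 360 CPM of Bmp4 and Isl1-negative ones 17.8, 111 and 93.1 CPM at E8.0, E9.5 and E10.5. The ratios were 3.25 (2.40 to 4.45), 2.33 (2.09 to 2.59) and 3.86 (3.36 to 4.45), above 1 in 3 of 3 libraries. Smad6 was higher in the Isl1-positive cells at E9.5 (1.82, 1.39 to 2.37) and E10.5 (1.89, 1.39 to 2.57) but not at E8.0 (0.796, 0.533 to 1.17).

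Cells with at least 3 UMIs of Myl2, the ventricular myosin light chain, had less Bmp4 and Id3 in 3 of 3 libraries. Their Id3 was at 170, 129 and 201 CPM against 255, 595 and 600 CPM in the other cardiomyocytes, and the ratios were 0.666 (0.584 to 0.758), 0.217 (0.197 to 0.240) and 0.335 (0.290 to 0.384) at E8.0, E9.5 and E10.5. Bmp4 ratios were 0.179, 0.425 and 0.769, all with intervals under 1. Id1 was lower too at E9.5 (0.424) and E10.5 (0.411), while at E8.0 its interval held 1 (0.793 to 1.06). Bmp2 had a ratio of 0.330 (0.233 to 0.457) at E8.0 and, at the late stages, of 1.11 (0.920 to 1.34) and 3.04 (2.28 to 4.05). Bmp5 (2.69 and 2.59) and Bmp7 (1.42 and 2.52) were higher in Myl2-positive cells at E9.5 and E10.5. Stard10, a gene of heart muscle that encodes a lipid transfer protein, went with lower Id1 (ratios 0.733, 0.672, 0.743 and 0.628) and lower Id3 (0.699, 0.855, 0.756 and 0.625) in 4 of 4 libraries. Nr2f1, an atrial transcription factor, could be used at E9.5 and E10.5, where the Id3 ratios were 2.24 and 0.759, on opposite sides of 1. Depth per cell was not matched between the parts of a split.

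**Figure D4:**
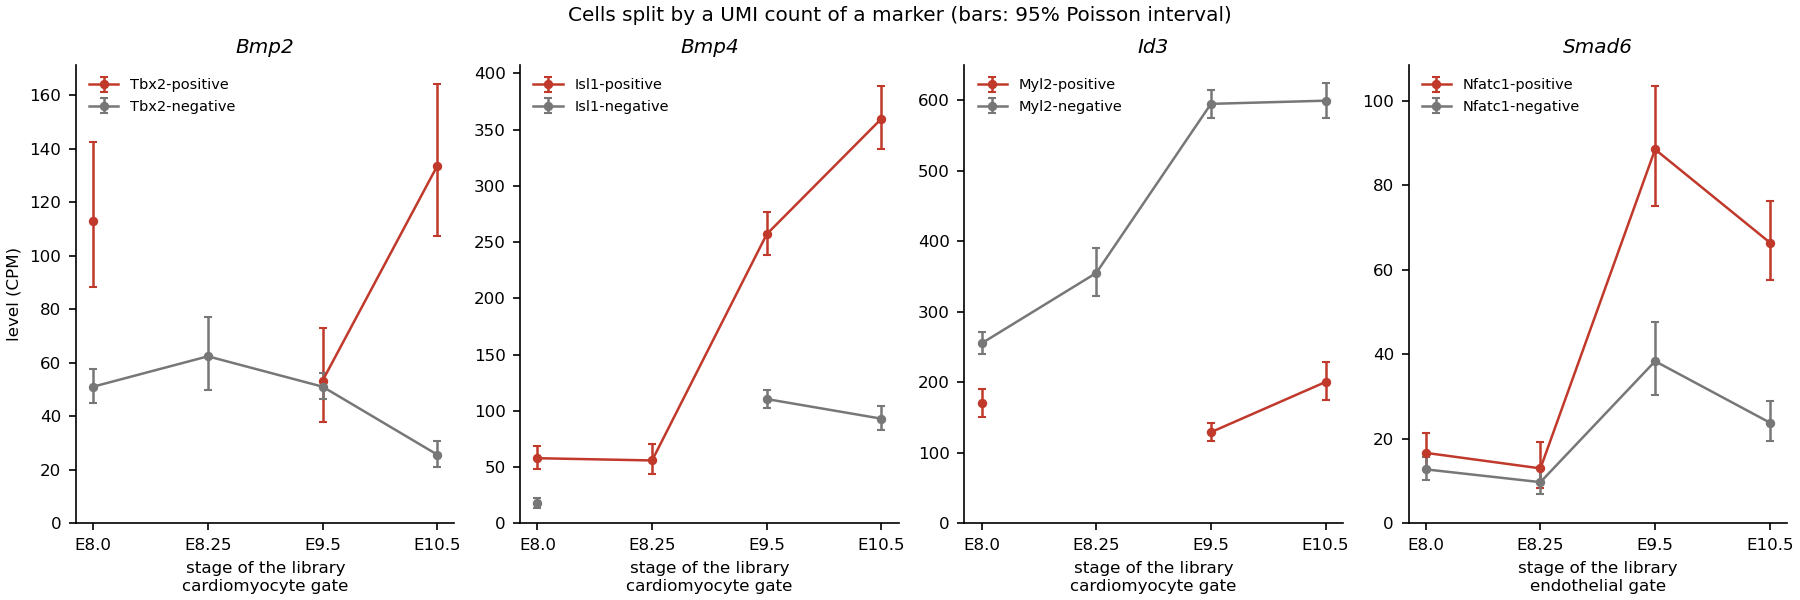
Levels by stage in cells with and without a further marker gene, for Bmp2, Bmp4 and Id3 in the cardiomyocyte gate and Smad6 in the endothelial gate, in CPM on linear axes from 0 with exact Poisson 95% intervals, 1 point per library, and no point where a part had under 20 cells. Isl1-positive cardiomyocytes lie above Isl1-negative ones for Bmp4 in the 3 libraries with both (ratios 2.33 to 3.86), and Myl2-positive ones lie below for Id3 (0.217 to 0.666).

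The wider pathway was described with a list of 57 other genes, namely ligands, receptors, secreted modulators, intracellular mediators and response genes. In the cardiomyocyte gate 10 were higher and 13 lower of 48 tested, beside 31.0% of all genes called, with a median log2 difference of -0.01 beside -0.04 over all genes. Of the 10 response genes 5 were higher and 2 lower. Among the higher ones were Tbx20 (3.30) and Gata4 (2.44), transcription factors of the heart. Of the 13 secreted modulators tested 1 was higher and 6 lower. The largest changes were those of Cer1 (-4.08) and Grem1 (-3.60), secreted antagonists, and of Eng (-3.44), a co-receptor of endothelial cells. The antagonist Nog and Bmper (2.65), a secreted binding protein of BMPs, were on the other side. In the endothelial gate 11 were higher and 21 lower of 50 tested, beside 36.3% of all genes called (median -0.48 beside -0.06). Sost, a secreted antagonist of the pathway and of Wnt signals, was at a mean of 30.5 CPM against 0.214. Eng was at 160 against 5.22 CPM (log2 difference 4.90, edgeR adjusted p = 0.000404). Bmp3 had no UMI in that gate and 0.859 CPM in the other cells. Sost and Bmp3 passed the filter on low counts only through the side where they were high, so their calls within these counts are no support. Of the 10 receptors 4 were higher, among them Acvrl1 (3.72) and Bmpr2 (1.01), and 5 lower.

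Branchiomeric cells had 6 of the 49 tested higher and 10 lower, beside 9.63% of all genes called (median -0.22 beside -0.01), with Sost (-4.49), Eng (-3.38) and Tbx20 (-3.37) the largest, and the antagonist genes Chrdl1 (2.88) and Grem1 (1.76) higher. The gate of Hand1 and Mab21l2 had 7 higher and 9 lower of 49, beside 9.82% (median 0.10 beside -0.03). There the ligand gene Gdf6 (3.27) was higher, Sost (-3.16) and Fst (-2.69), both genes of secreted antagonists, were lower, and the response genes Msx2 (2.36) and Msx1 (1.68) were higher. In the anterior second heart field gate 1 was higher and 4 lower of 51, beside 4.01%, with Sost (-5.22), Eng (-2.26) and Cer1 (-2.10) the largest, and in the posterior one 2 were higher and 5 lower of 51, beside 8.70%, with Sost (-4.54), Eng (-3.82) and Hey2 (-2.57). For all these gates, and for cardiomyocytes, the other cells include the endothelial gate, where Sost and Eng were high. The part of endothelial cells in the lower Sost and Eng of these gates was not tested. Sost was low outside the endothelial gate and may have passed the filter on low counts only through the other cells. Its calls within these counts are therefore no support. Between endothelial cells with and without Nfatc1, 1 of 29 was called, beside 0.130% of all genes, namely Gata4, which was higher (1.36, adjusted p = 0.00294). All these values are log2 differences from the same edgeR fits.

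The genes most like each of the 10 were sought over 39 sums of library and gate, as the correlation of log2(CPM + 1) among 10714 genes. The sums share 4 libraries and their depth, so the values are descriptions. Id1 and Id3 were most like each other among the 10 genes (Pearson r = 0.92, Spearman rho = 0.73), with Id2 and Id3 next (0.86 and 0.64). The closest of all genes by Pearson r was Id3 for Id1, Gna11 for Id3 (0.95, rho 0.67) and Ube2b for Id2 (0.93, rho 0.92). Smad6 was most like Igf2r (0.92), Furin (0.91) and Bambi (0.87), of which Furin encodes a protease that cuts precursors of secreted proteins and Bambi a decoy receptor of the pathway. Bambi was also the second gene for Bmp4 (0.86), after Wbp5 (0.87). Bmp2 was most like Pkp2 (0.85), a gene of cell contacts in heart muscle, Bmp5 like Ephb2 (0.91), Bmp7 like Ccdc136 (0.88), Nog like Crb2 (0.81) and Bmp10 like Pnmt (0.88), followed by the sarcomere genes Myl4 (0.86) and Mybpc3 (0.81). For Bmp10 the Spearman rho of these 3 genes was lower, at 0.61, 0.67 and 0.45, and Myl4 is itself a marker of the cardiomyocyte gate.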

How the data were processed

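The authors aligned the reads to mm10 with Cell Ranger 3.1.0 and deposited raw UMI counts per gene and cell, without normalization, for the barcodes called as cells. Cells with at least 1000 genes and at most 10% mitochondrial UMIs were kept, and the highest Scrublet doublet scores (scanpy 1.11.5) were removed at 0.8% per 1000 cells, which left 151615964, 106020617, 70599266 and 127959940 UMIs in the order of stages. Gates were set on raw UMIs (1 marker of the branchiomeric list is not reported here), and counts were summed per library and gate where at least 20 cells were found. Gate and other cells were compared with edgeR 4.0.16 (R 4.3.3; TMM, filterByExpr, quasi-likelihood test, library as a block, Benjamini-Hochberg adjustment), the SE being the log2 fold change divided by the root of F. The blocked design follows from the sampling, since both sums of a pair come from the same library. Embryos were pooled, so p-values measure the spread between libraries of different stages. CPM used total UMIs, and 10 CPM in at least 1 library was asked for in comparisons of stages. Named genes are all 10 described, the 3 called pathway genes with the largest change per comparison, others chosen after their values were seen to illustrate a count, and the 3 most alike genes. Alternatives were DESeq2 1.42.0, other scalings, filters and gates, no block, and each library left out. The genes, lists and gates were chosen with earlier results of these data known. Promoter sequences are from RefSeq.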

Additional observations from a re-analysis of the deposited data

Results flagged for a closer look

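In 6 cases a gene lay above the other cells in both early libraries and below them in both late ones, or the reverse, with exact Poisson 95% intervals of gate and other cells that did not overlap in any of the 4 libraries. With 2 libraries on each side, this difference between early and late stages was not tested, and dissected region changed with stage. Values are log2 ratios of gate to other cells in the order of stages, followed by the late mean minus the early mean.

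For Bmp2 in endothelial cells the ratios were 1.58, 1.07, -1.01 and -0.54, a change of -2.10. Id1 in endothelial cells went the other way, with -0.20, -0.48, 0.17 and 0.22, a change of 0.54. In branchiomeric cells Id1 turned from 0.94 and 1.17 to -0.17 and -0.42, a change of -1.35, and Id3 from 0.49 and 0.83 to -0.12 and -0.31, a change of -0.87. In the gate of Hand1 and Mab21l2 Id1 turned from -0.61 and -0.33 to 0.23 and 1.54, a change of 1.35, and Id3 from -0.17 and -0.27 to 0.12 and 0.54, a change of 0.55. In further cases the intervals overlapped in at least 1 library. Nog turned from above to below the other cells in the branchiomeric gate (6.46 and 5.62 CPM, then 1.61 and 2.0). There 4, 7, 13 and 18 cells had a UMI of Nog in the order of stages. In the gate of Hand1 and Mab21l2 Nog also turned from above to below (7.27 and 9.82 CPM, then 1.76 and 2.56). Bmp10 did so in the anterior second heart field gate, but on 1, 1, 0 and 0 UMIs in the order of stages, too few to show a change. Id3 turned from below to above in endothelial cells, and in Nfatc1-positive against Nfatc1-negative ones.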

How the results depend on the processing

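The number of the 10 genes called was 7 in the cardiomyocyte gate, 6 in endothelial, 4 in branchiomeric, 4 in anterior and 1 in posterior second heart field cells, 3 in the gate of Hand1 and Mab21l2 and 1 for Nfatc1. Without the library block, a fit that ignores which sums share a library, it was 4, 4, 1, 0, 0, 1 and 0, and the calls over all genes fell from 4302 to 1482, 5075 to 2399, 1316 to 90, 559 to 9, 1195 to 77, 1353 to 80 and 13 to 1. Leaving out each library in turn gave 5 to 7, 5 to 6, 3 to 4, 1 to 5, 1 to 2, 1 to 3 and 0 to 2. DESeq2 gave 4 in the posterior gate, 6 in the gate of Hand1 and Mab21l2 and 0 for Nfatc1, with 2114, 2244 and 3 calls over all genes, and 1141 in the anterior gate. Total UMIs without TMM gave 2 in the posterior gate and 0 for Nfatc1 (7 calls in all). Gating on cells thinned to 8000 UMIs gave 5 in the gate of Hand1 and Mab21l2 and 2 for Nfatc1 (62 in all). For Nfatc1, no low-count filter gave 4 (276 in all), the stricter gate 4 (82) and no doublet removal 0 (6). Between stages, 1 gene (Id2) passed without haemoglobin, mitochondrial and ribosomal protein genes, without erythroid cells, or at a fold of 1.5. The causes were not tested.

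Of all values of single genes under these alternatives, 650 kept their side of the threshold, 31 passed it newly, 52 lost it and 0 changed sign while called. The stricter branchiomeric gate and the thinned and stricter Nfatc1 gates had 3 libraries. A block by replicate number was not possible, because each stage had 1 library. Depth limited Bmp10, with 100 UMIs in all, and Nog, Bmp5 and Bmp7 in endothelial cells.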

Other observations

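In the cardiomyocyte, anterior and posterior second heart field, Hand1 and Mab21l2, cranial and branchiomeric gates, cells with at least 1 UMI of Bmp4 were set beside cells without, as sums per library and with no test. The endothelial and other gates were not used. Id1 was higher in the cells with Bmp4 in 20 of 21 such pairs of sums (median log2 ratio 0.46, from -0.81 to 1.09) and Smad6 in 17 of 21 (median 0.43, from -0.28 to 1.81). Id2 was higher in 13 of 21 (median 0.13) and Id3 in 15 of 21 (median 0.14). The ligand gene Bmp5 was also higher with Bmp4 in most pairs. Its log2 ratio was 0.63, 1.30, -0.18 and 1.19 in the anterior second heart field gate and 0.59, 0.54, -0.77 and -0.83 in cardiomyocytes. The share of all genes that were higher was not taken, and a response to Bmp4 was not tested. In the cardiomyocyte gate the log2 ratio of Id1 was 0.46, 0.77, 0.98 and 1.09 in the order of stages and that of Id2 was -0.60, -0.51, 0.29 and 0.37. Depth and sub-type were not matched between the cells with and without Bmp4, and their part in the ratios was not tested.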
